A study of Mus musculus with 22 samples.

Results

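The endoplasmic reticulum (ER) folding and degradation genes are 36 named genes whose products fold, modify, move or destroy proteins of the secretory pathway. They were chosen by symbol, and each gene was represented by its probe set of highest mean over the 22 arrays. All 36 were measured, among 18193 genes in all. Each array measured RNA of terminal ileum, the last stretch of the small intestine. All mice were of the NOD strain, which is prone to autoimmune diabetes, and the labels name no other genotype. Control mice gave 3 female and 5 male arrays. Mice given antibiotics at a sub-therapeutic level (STAT) gave 3 female and 3 male arrays, and mice given antibiotics in pulses at therapeutic doses (PAT) gave 3 female and 5 male arrays. The sources used here give no ages, drugs, doses or times, and nothing in the labels says that each array is a separate animal. The p-values below thus rest on the spread among these arrays alone, and that spread may be technical.

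Proteins that enter the ER are bound by chaperones such as Hspa5 (BiP) and Hsp90b1 (GRP94), receive disulfide bonds from the protein disulfide isomerases, and leave in coated vesicles once they are folded. Proteins that do not fold are trimmed, pulled back into the cytosol and destroyed by the proteasome, a route called ER-associated degradation. When unfolded protein builds up, the sensors Ern1 (IRE1), Atf6 and Eif2ak3 (PERK) start the unfolded protein response, in which Atf6 and the spliced form of Xbp1 switch on chaperone and degradation genes. The ileum depends on this system because goblet, Paneth, plasma and enteroendocrine cells secrete large amounts of protein and enterocytes export lipoproteins. The arrays measure the RNA of a gene as a whole: neither the splicing of Xbp1 nor any protein was measured.

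The classical target site of Atf6 and Xbp1 is the ER stress response element (ERSE). It was searched on both strands as CCAAT, 9 free bases and CCACG in RefSeq promoter windows of the GRCm38.p6 build, from 250 bases before to 50 bases after each transcript start. Windows were found for 30 of the 36 members, and those of Sec61a1, Derl1, Atf6, Hyou1, Ern2 and Manf were not analysed here. The ERSE stood in 9 of the 30 members (30%) and in 37 of all 27025 genes with a window (0.137%). The matches are shown because they mark the members that share a promoter element. The members are known genes of this pathway and the ERSE is its classical element. A higher share of such elements among them is therefore no independent result. Each is written 5′ to 3′ on the strand that reads CCAAT, with the fixed letters of the motif in capitals.

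Hspa5, chr2:34772025-34772043, + strand, 65 to 47 bases before the start: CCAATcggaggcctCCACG
Hsp90b1, distal, chr10:86705638-86705656, - strand, 212 to 194 bases before the start: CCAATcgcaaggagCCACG
Hsp90b1, proximal, chr10:86705533-86705551, + strand, 107 to 89 bases before the start: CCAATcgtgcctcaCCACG
Creld2, chr15:88819520-88819538, - strand, 126 to 108 bases before the start: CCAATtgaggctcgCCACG
Calr, chr8:84847075-84847093, + strand, 162 to 144 bases before the start: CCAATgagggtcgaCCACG
Dnajc3, chr14:118937827-118937845, + strand, 105 to 87 bases before the start: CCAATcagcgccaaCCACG
Pdia6, chr12:17266491-17266509, + strand, 98 to 80 bases before the start: CCAATgaaaggcggCCACG
Canx, chr11:50325800-50325818, - strand, 145 to 127 bases before the start: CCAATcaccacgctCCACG
Syvn1, chr19:6046532-6046550, + strand, 44 to 26 bases before the start: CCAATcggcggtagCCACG
Derl3, chr10:75893242-75893260, - strand, 156 to 138 bases before the start: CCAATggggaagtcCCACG

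A second form, ERSE-II, was searched on both strands as ATTGG, 1 free base and CCACG, and stood in 2 of the 30 members (6.67%) against 12 of all genes (0.0444%). The unfolded protein response element (UPRE), was searched on both strands as TGACGTGG and stood in 1 member (3.33%), Sec24d, against 193 of all genes (0.714%). The ERSE-II matches belong to Dnajb11, a co-chaperone of Hspa5, and Herpud1, a scaffold of the degradation machinery. A match describes the letters in the window and does not show that a factor binds there.

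Dnajb11, chr16:22857852-22857862, + strand, 7 to 17 bases after the start: ATTGGcCCACG
Herpud1, chr8:94386377-94386387, + strand, 52 to 42 bases before the start: ATTGGgCCACG

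Hspa5 and Dnajb9 had the smallest adjusted p-values of the members with PAT, so the 250 bases before their starts are given whole. That of Hspa5 holds its match to the ERSE as searched, given in capitals, and that of Dnajb9 holds no match to the 3 motifs.

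Hspa5, chr2:34771840-34772089, + strand: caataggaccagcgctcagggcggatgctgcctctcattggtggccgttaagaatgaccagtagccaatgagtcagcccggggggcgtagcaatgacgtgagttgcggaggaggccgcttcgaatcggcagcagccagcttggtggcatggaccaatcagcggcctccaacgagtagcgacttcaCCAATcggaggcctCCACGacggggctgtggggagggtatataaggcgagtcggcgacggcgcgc
Dnajb9, chr12:44210069-44210318, - strand: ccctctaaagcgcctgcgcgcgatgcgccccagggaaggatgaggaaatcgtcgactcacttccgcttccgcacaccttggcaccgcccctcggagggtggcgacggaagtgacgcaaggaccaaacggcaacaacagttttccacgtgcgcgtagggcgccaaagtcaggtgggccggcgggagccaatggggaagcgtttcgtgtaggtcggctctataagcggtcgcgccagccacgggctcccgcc

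**Figure D1:**
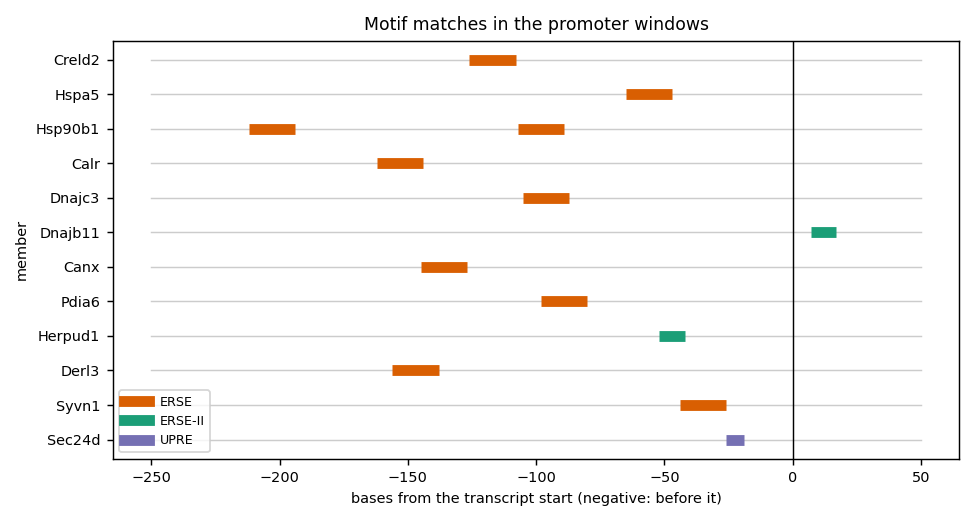
Positions of the motif matches in the promoter windows of the 12 members that hold 1, in bases from the transcript start; grey lines are the windows, and orange, green and purple bars are ERSE, ERSE-II and UPRE. All matches lie before the start except that of Dnajb11, and Hsp90b1 is the member with 2.

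The values are log2 expression levels per probe set, on which a difference of 1 is a 2-fold change. A level is compared here only between arrays and never between genes. The bile acid carrier Fabp6 of the ileum lay between 13.93 and 14.62 on all arrays and the goblet mucin Muc2 between 12.69 and 13.71. The ileal bile acid transporter Slc10a2 ranged more widely, from 9.61 to 11.98. A few arrays stood apart. PAT female 1 had a mean level of 7.78 over 3 B cell markers, against 4.90 to 5.34 on the other 21 arrays, and the lactase gene Lct at 10.37 against at most 4.81. The same array had the lowest Slc10a2, at 9.61 against a mean of 11.14 over all arrays. STAT males 2 and 3 had the largest beta-actin difference between the 3-prime and 5-prime ends, a sign of RNA quality, at 0.589 and 0.601 against 0.283 to 0.418 on the other arrays. The same measure for Gapdh was -0.072 ± 0.042 (SD) in PAT females and -0.154 ± 0.058 in control females, and -0.156 ± 0.056 in PAT males and -0.236 ± 0.034 in control males. In bulk tissue, fewer cells of a type and less RNA per cell cannot be told apart.

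The rises with PAT lay mostly among the chaperones. Averaged over the sexes, 14 of the 36 members were called higher with PAT than in controls and 2 lower, where a call means an adjusted p under 0.05 in limma's linear model with Benjamini-Hochberg adjustment over all genes. Over all genes, 4.61% were called higher and 6.38% lower. The median difference of the members was 0.11 on the log2 scale and that of all genes -0.00479, and 26 members had a positive difference. The chaperones and their co-factors held 9 of the 14 rises, from 11 genes. The disulfide isomerases held 3 from 6, the sensors 1 from 5, translocation and export 1 from 5, and degradation 0 from 9. The falls were Ern1 among the sensors and Edem1 among the degradation genes.

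Hspa5, the main chaperone of the ER and the protein that holds the sensors inactive, was the member that separated the arrays without overlap. Its log2 levels were 13.11, 13.00 and 13.16 in control females and 12.75, 13.15, 13.14, 13.30 and 12.97 in control males. With PAT they were 13.47, 13.48 and 13.47 in females and 13.70, 13.74, 13.47, 13.50 and 13.59 in males. All 8 PAT arrays lay above all 8 control arrays, which held for 0.544% of all genes and for no other member. No member had all PAT arrays below all control arrays, as 1.15% of all genes did. The difference was 0.46 ± 0.07 (SE), a rise of 37.5% (limma adjusted p = 0.00031). Of the other probe sets of Hspa5, 1 gave 0.54 ± 0.09 and was called, and a dimmer 1 gave 0.27 ± 0.11 (adjusted p = 0.13).

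Dnajb9 (ERdj4), a co-chaperone that hands misfolded proteins to Hspa5 and holds Ern1 in check, had the largest rise of the members. Control females were at 10.63, 10.65 and 11.15 and control males at 10.85, 11.06, 11.14, 10.80 and 10.88. PAT females were at 11.12, 11.20 and 11.84 and PAT males at 12.42, 12.62, 11.92, 11.82 and 11.61. All PAT males lay above every control array, while PAT female 1 lay within the control range. The mean difference of 0.85 ± 0.14 is a 1.81-fold rise (adjusted p = 0.00053).

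Creld2, an ER protein with isomerase activity that is secreted under stress, followed with 0.77 ± 0.13, or 1.70-fold (adjusted p = 0.001). Its control levels were 9.51, 9.30 and 9.73 in females and 9.13, 9.84, 9.48, 9.90 and 9.33 in males, against 10.43, 10.30 and 10.12 in PAT females and 10.55, 10.70, 9.96, 9.87 and 10.40 in PAT males. The lowest PAT array, male 4, lay just under the highest control array. Manf, which steadies Hspa5 on its clients, was at 11.30 to 11.86 in controls (median 11.58) and at 11.74 to 12.09 with PAT (median 12.04), a difference of 0.42 ± 0.08 (adjusted p = 0.0023). For Manf 6 of 8 PAT arrays lay above every control array.

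**Figure D2:**
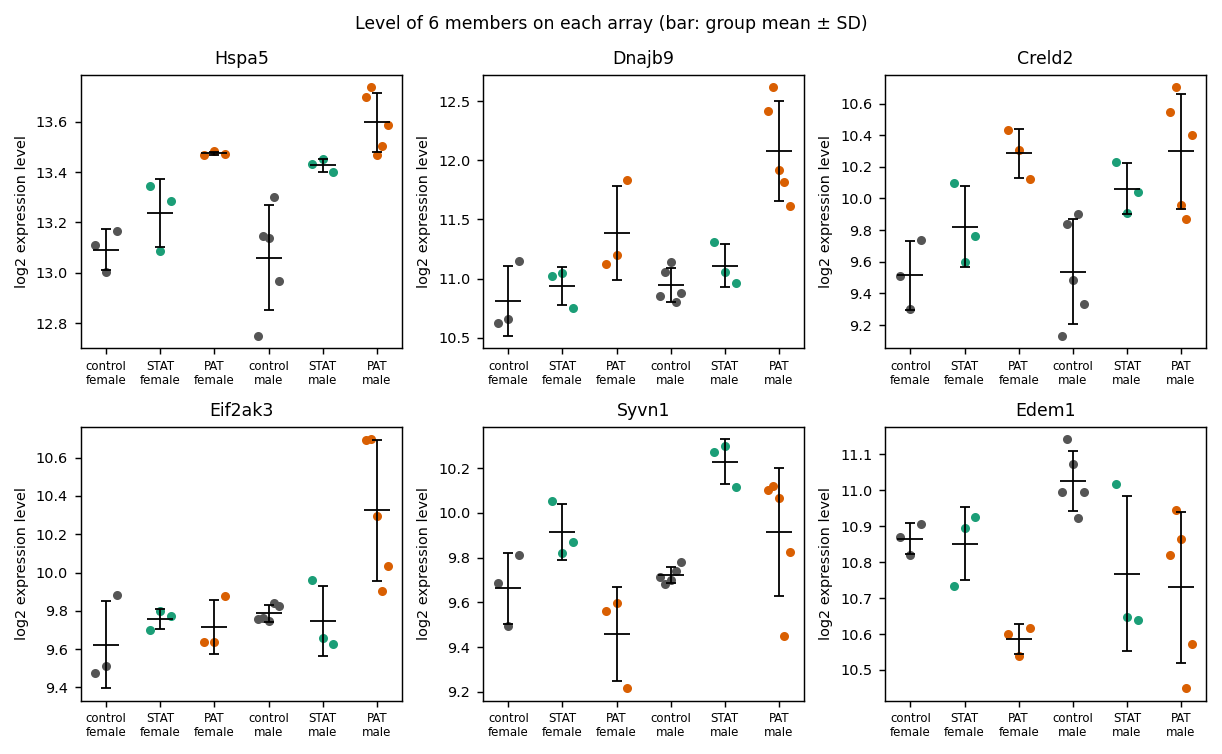
Log2 expression level of 6 members on each array (points), by treatment and sex, with the group mean ± SD in black. Hspa5 in PAT arrays lies above every control array, Eif2ak3 is high in PAT males and not in PAT females, and Syvn1 is highest in STAT males.

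The other chaperones that rose changed by less. Hsp90b1, the ER form of the heat shock protein 90 family, rose by 0.38 ± 0.09 (adjusted p = 0.008). Its control levels were at most 12.30 except for 12.53 in control male 4, and its PAT levels were 12.40 to 12.87. Hyou1, which reloads Hspa5 with ATP, rose by 0.36 ± 0.09 (adjusted p = 0.011), and Sdf2l1, a partner of Dnajb11, by 0.43 ± 0.12 (adjusted p = 0.023). Hyou1 and Sdf2l1 each had 6 of 8 PAT arrays above every control array. Sdf2l1 spread widely in PAT males, at 10.67, 10.86, 10.39, 10.18 and 11.04, against 10.02 to 10.49 in controls. Calr, the soluble lectin that holds glycoproteins for folding, and Dnajc3, a co-chaperone of Hspa5, rose by 0.25 ± 0.08 and 0.25 ± 0.07 (adjusted p = 0.038 and 0.023). Dnajb11 had a difference of 0.22 ± 0.08 that missed the threshold (adjusted p = 0.077), with 10.40 to 10.87 in controls and a lowest PAT level of 10.60. Canx, the membrane-bound partner of Calr, was at -0.08 ± 0.05 (adjusted p = 0.35), with levels of 12.79 to 12.99 in controls and 12.72 to 12.86 with PAT.

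Among the enzymes that form and reshuffle disulfide bonds, Pdia4 rose by 0.33 ± 0.09, Pdia6 by 0.33 ± 0.10 and P4hb by 0.19 ± 0.06 (adjusted p = 0.016, 0.038 and 0.036). Pdia4 lay at 9.68 to 10.17 in controls and at 9.87 to 10.52 with PAT, with 6 of 8 PAT arrays above every control array. P4hb, the founding member of the family, lay at 13.41, 13.23 and 13.27 in PAT females, above every control array (12.94 to 13.07), and at 13.10, 13.00, 13.04, 13.05 and 13.38 in PAT males, 2 of them above. Pdia3, which works with Calr and Canx on glycoproteins, was at 0.08 ± 0.06, Pdia5 at -0.03 ± 0.07, and Dnajc10, a reductase that opens disulfides before degradation, at -0.06 ± 0.07. The adjusted p of these 3 was 0.48 or more.

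The sensors did not move together. Xbp1, the transcription factor made active by Ern1, was at 12.87, 12.92 and 12.86 in PAT females against 12.73, 12.72 and 12.78 in control females. In males it was at 13.18, 13.29, 13.12, 13.18 and 12.97 with PAT against 12.82, 12.96, 12.97, 13.05 and 12.99. Xbp1 rose by 0.17 ± 0.05 (adjusted p = 0.049), with 1 PAT male inside the range of control males, and Ern1 fell by 0.26 on the log2 scale (SE 0.08, adjusted p = 0.041). Ern1 was at 9.24, 9.11 and 9.14 in control females and 9.50, 9.15, 9.33, 9.17 and 9.23 in control males, and at 9.13, 8.76 and 9.10 in PAT females and 9.22, 8.78, 8.97, 8.94 and 8.73 in PAT males. For Ern1 6 of 8 PAT arrays lay below every control array. Its 4 dimmer probe sets lay between -0.09 and 0.03 and passed no test, so the fall rests on the brightest 1, and the mean of the probe sets of Ern1 was not called (adjusted p = 0.32). Eif2ak3, the kinase that slows translation, was at 0.32 ± 0.11 (adjusted p = 0.059). Atf6 was at -0.13 ± 0.08 and Ern2, the form of Ern1 found in mucosal epithelium, at -0.16 ± 0.08 (adjusted p = 0.34 and 0.23).

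Of the 9 degradation genes, none rose and 1 fell. Edem1, which trims mannose from misfolded glycoproteins and so marks them for destruction, was at 10.87, 10.82 and 10.91 in control females and 10.99, 11.14, 11.07, 10.92 and 10.99 in control males. With PAT it was at 10.60, 10.54 and 10.62 in females and 10.82, 10.94, 10.86, 10.45 and 10.57 in males. Its difference was -0.29 ± 0.07 (adjusted p = 0.015), and 6 of 8 PAT arrays lay below every control array. Another probe set of Edem1 gave -0.04 ± 0.07, and the mean of both was not called (adjusted p = 0.11). Its relative Edem2 was at -0.16 ± 0.06 and the lectin Os9, which passes trimmed glycoproteins to the ligase, at -0.14 ± 0.05 (adjusted p = 0.1 and 0.11). The ligase Syvn1 (HRD1) was at -0.01 ± 0.09, its partner Sel1l at 0.07 ± 0.08 and Herpud1 at 0.10 ± 0.16. Herpud1 was the most scattered of these, with 10.51 to 11.16 in controls and 10.46 to 11.82 with PAT. The derlins, membrane proteins through which substrates leave the ER, lay between 0.02 and 0.04 (adjusted p = 0.8 or more).

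In translocation and export, Sec24d, which picks cargo for vesicles that leave the ER, rose by 0.35 ± 0.08 (adjusted p = 0.01). Its levels were 11.41, 10.71 and 10.91 in PAT females and 10.91, 10.77, 10.67, 10.64 and 10.93 in PAT males, against 10.33 to 10.73 in controls. PAT female 1 had the highest level, and the difference without it was 0.25 ± 0.07 (adjusted p = 0.033). The translocation pore subunits Sec61a1 and Sec61b were at 0.10 ± 0.05 and 0.05 ± 0.05, and Ssr1 and Ssr3 of the translocon-associated complex at 0.13 ± 0.08 and 0.12 ± 0.06. The lowest adjusted p of these 4 was 0.22.

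**Figure D3:**
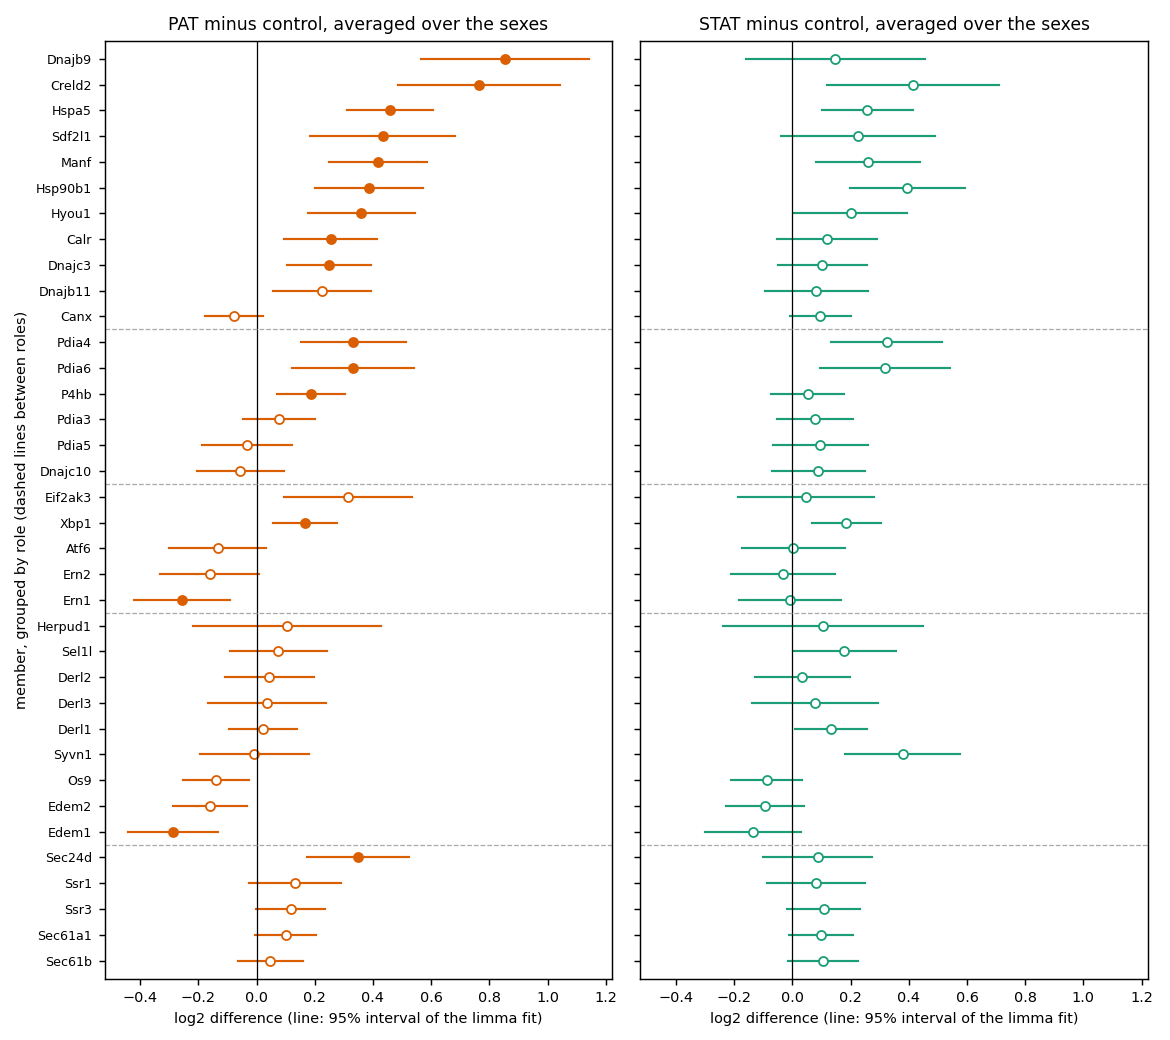
Log2 difference from control of all 36 members, averaged over the sexes, for PAT (left) and STAT (right), with the 95% interval of the limma fit; filled points are called at an adjusted p under 0.05 and dashed lines separate the roles. For PAT, 14 filled points lie to the right of 0, of which 9 are chaperones and 3 isomerases, with Xbp1 and Sec24d the others, and 2 (Ern1 and Edem1) lie to the left; for STAT 0 are filled.

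The calls differed in how firmly they held. Leaving out each of the 16 PAT and control arrays in turn kept 8 of the 16 calls in every run: Hspa5, Hsp90b1, Dnajb9, Creld2, Manf, Hyou1, Edem1 and Sec24d. The count of higher members fell from 14 to 7 without PAT female 1, to 8 without control female 1 and to 9 without control female 2. The calls of Xbp1, Pdia6, Ern1, P4hb and Calr were lost in 13, 11, 9, 8 and 7 of the 16 runs. Without PAT female 1, Hspa5 was at 0.46 ± 0.08, Dnajb9 at 0.92 ± 0.15 and Creld2 at 0.73 ± 0.15, all called, while Sdf2l1, Pdia4, Pdia6, P4hb, Calr, Dnajc3 and Xbp1 had adjusted p-values of 0.053 to 0.11. With the Gapdh end difference as a covariate, 5 members were called higher (Hspa5, Dnajb9, Creld2, Manf and Eif2ak3) and 0 lower. Of the lost calls, several were about as large with wider errors: Sdf2l1 at 0.48 ± 0.15, Sec24d at 0.34 ± 0.10, Pdia4 at 0.32 ± 0.11, Hyou1 at 0.31 ± 0.11, Dnajc3 at 0.23 ± 0.08, Xbp1 at 0.16 ± 0.07 and Ern1 at -0.29 ± 0.10. Hsp90b1 (0.28 ± 0.10), Pdia6 (0.26 ± 0.12), P4hb (0.14 ± 0.07), Calr (0.17 ± 0.09) and Edem1 (-0.17 ± 0.08) were smaller. The limma adjusted p of the lost calls was 0.071 to 0.37 in this fit. The mean Gapdh end difference was itself higher with PAT than in controls of each sex. RNA quality and PAT thus cannot be fully told apart here. Over the list, the median difference of an array from the mean of controls of its sex was 0.254, 0.153 and 0.123 in PAT females and 0.0229 to 0.174 in PAT males, against -0.0945 to 0.112 in controls. It was 0.029 to 0.129 in STAT females and 0.134 to 0.183 in STAT males. The largest median was that of PAT female 1, with 29 of 36 members above the control mean, while STAT female 1 had 33 and STAT male 1 had 30. The mean chaperone level was 11.62 to 11.76 in PAT females against 11.22 to 11.45 in control females, and 11.50 to 11.89 in PAT males against 11.10 to 11.48 in control males. The 36 members have 87 probe sets, of which 21 were called higher and 2 lower with PAT when every probe set was tested. Over all 34945 probe sets, 1379 were called higher and 1710 lower. The called members have 21 further probe sets beside those that stood for them. Of these, 18 had the same sign and 6 were also called.

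Of the 9 members with an ERSE, 6 rose with PAT (Hspa5, Hsp90b1, Creld2, Calr, Dnajc3 and Pdia6). This stands against 14 of all 36 members and 4.61% of all genes. The median difference of the 9 was 0.254. With STAT, set against the same controls, 0 of the 9 were called and their median difference was 0.256. In PAT against STAT 0 were called higher and 2 lower (Canx and Syvn1), with a median of 0.0142. For PAT against control, Canx, Syvn1 and Derl3 had differences of -0.08, -0.01 and 0.03. Dnajb9, Sdf2l1, Pdia4, P4hb, Xbp1 and Sec24d rose with PAT without an ERSE in their windows. Manf and Hyou1 also rose but had no window. Of 11 other measured genes with an ERSE, 0 were called higher and 1 lower in the same fit, with a median difference of 0.01. Of these 11 genes, 5 had mean levels under 6, where RMA understates changes. The 1 called lower was Spats2l, at -0.41 ± 0.10; it and the next 2 genes are named after their values were seen. Alg12, a mannosyltransferase of the ER, was at 0.17 ± 0.06 (adjusted p = 0.079) and the oxidase Ero1b at 0.12 ± 0.10.

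The sexes were also fitted apart. In males, 7 of the 36 members were called higher with PAT and 3 lower, against 2.34% and 6.68% of all genes. In females 2 were called higher and 0 lower, against 2.27% and 1.08%. The smaller female groups leave wider errors, and a call in 1 sex does not show a difference between the sexes. The interaction, which tests that difference, called 0 of the 36 members and 0.0055% of all genes, and 2 members had an unadjusted p under 0.05, as 18.6% of all genes did. These were Eif2ak3, with a female effect 0.44 below the male effect (interaction -0.44 ± 0.21, adjusted p = 0.27), and Syvn1 (-0.39 ± 0.18, adjusted p = 0.25).

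Males rose most in Dnajb9, by 1.13 ± 0.17 (adjusted p = 0.00043), and in Creld2, by 0.76 ± 0.16. Hspa5 rose by 0.54 ± 0.09, Hyou1 by 0.47 ± 0.11, Hsp90b1 by 0.46 ± 0.11 and Manf by 0.35 ± 0.10. Eif2ak3 was called in males, where its levels were 10.69, 10.70, 10.30, 9.90 and 10.03 with PAT against 9.76, 9.76, 9.75, 9.84 and 9.83 in controls. All 5 PAT males lay above all 5 control males, as in 1.75% of all genes and in Hspa5 and Dnajb9, and the difference was 0.54 ± 0.13 (adjusted p = 0.013). In females Eif2ak3 lay at 9.63, 9.64 and 9.88 with PAT and 9.47, 9.51 and 9.88 in controls, a difference of 0.09 ± 0.17. Its 2 dim probe sets gave 0.15 ± 0.17 and -0.01 ± 0.12 in males, and the mean of its probe sets was not called (adjusted p = 0.24). The male falls were Ern1 (-0.35 ± 0.10), Edem1 (-0.30 ± 0.09) and Edem2 (-0.26 ± 0.07), with adjusted p-values of 0.03, 0.046 and 0.034. Edem2 and Ern2 (-0.27 ± 0.10, adjusted p = 0.091) had all 5 PAT males below all 5 control males, as 5.29% of all genes did. Each of the 3 falls and Manf lost its call in 4 or more of 10 leave-one-out runs.

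Females rose in Creld2, by 0.77 ± 0.21, and in Manf, by 0.48 ± 0.13 (adjusted p = 0.048 and 0.044). Creld2 lost its call in 5 of 6 leave-one-out runs and Manf in all 6, and without PAT female 1 the values were 0.70 ± 0.24 and 0.47 ± 0.15 (adjusted p = 0.16 and 0.13). All 3 PAT females lay above all 3 control females for 18 of the 36 members and below for 2, against 14.7% and 13.2% of all genes. Those 18 include all 5 translocation and export genes and, of the isomerases, Pdia3, Pdia4, Pdia6 and P4hb. Pdia6 was at 11.05, 11.17 and 11.02 in PAT females and 10.57, 10.34 and 10.75 in control females, a difference of 0.53 ± 0.16 that missed the threshold (adjusted p = 0.066). In males the difference of Pdia6 was 0.13 ± 0.12.

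**Figure D4:**
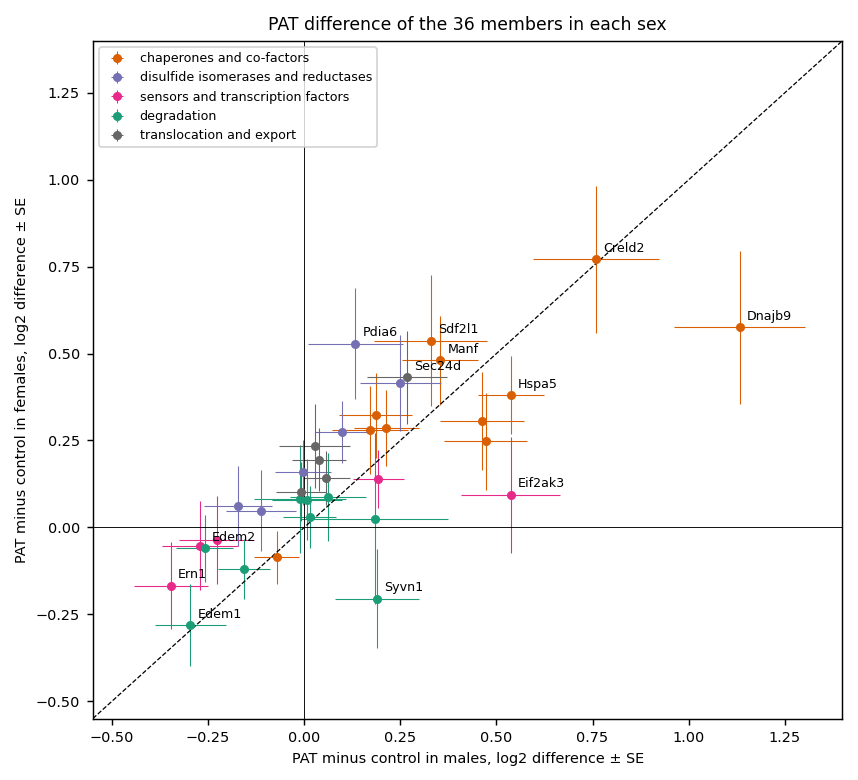
PAT minus control in males (x axis) and females (y axis) for the 36 members, in log2 units with SE bars, coloured by role; the dashed line marks equal differences. Dnajb9, Eif2ak3 and Syvn1 lie below the line and Pdia6 above it, and 0 members passed the interaction test.

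STAT gave no call. Averaged over the sexes, 0 of the 36 members and 0% of all genes passed limma's adjusted threshold, and 11 members, all higher, had an unadjusted p under 0.05, as 13.1% of all genes did in either direction. With array weights 9 members were called higher with STAT, where 1061 of all 18193 genes were called higher and 1227 lower. STAT and PAT were set against the same control arrays, so their differences from control are not independent. With STAT 31 of the 36 members had a positive difference, with a median of 0.0999 against -0.00388 for all genes. Within the sexes the counts called were also 0, and unadjusted p-values under 0.05 stood for 14 members in males and 1 in females, against 15.7% and 3.31% of all genes.

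The largest STAT differences were in part those of PAT. Creld2 was at 0.42 ± 0.14, Hsp90b1 at 0.39 ± 0.09, Pdia4 at 0.32 ± 0.09, Pdia6 at 0.32 ± 0.11 and Hspa5 at 0.26 ± 0.08, with adjusted p-values of 0.2 to 0.26. Hspa5 lay at 13.34, 13.09 and 13.28 in STAT females and 13.43, 13.45 and 13.40 in STAT males, so that 4 of 6 STAT arrays lay above every control array. Dnajb9 was at 0.15 ± 0.15, with levels of 11.02, 11.04 and 10.75 in females and 11.31, 11.06 and 10.96 in males, and 1 of these 6 arrays lay above the control range.

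Syvn1, the ubiquitin ligase of ER degradation, was the member apart with STAT. Its levels were 10.05, 9.82 and 9.87 in STAT females and 10.27, 10.30 and 10.12 in STAT males, against 9.69, 9.50 and 9.81 in control females and 9.71, 9.68, 9.70, 9.74 and 9.78 in control males. All 6 STAT arrays lay above all 8 control arrays, as in 0.0879% of all genes. The difference was 0.38 ± 0.10, with an adjusted p of 0.21. Its partner Sel1l had 4 of 6 STAT arrays above every control array and a difference of 0.18 ± 0.09 (adjusted p = 0.38). Without STAT male 1, the calls with STAT averaged over the sexes were Hsp90b1 (0.46 ± 0.09), Xbp1 (0.21 ± 0.06) and Syvn1 (0.37 ± 0.10), with adjusted p-values of 0.012, 0.041 and 0.041. STAT males 2 and 3, with the high beta-actin values above, then make up the male group. Without those 2 arrays, only STAT male 1 is left in the male STAT group, so no call is read from that fit. The STAT difference of Syvn1 was then 0.40 ± 0.12 and that of Hsp90b1 0.26 ± 0.11.

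**Figure D5:**
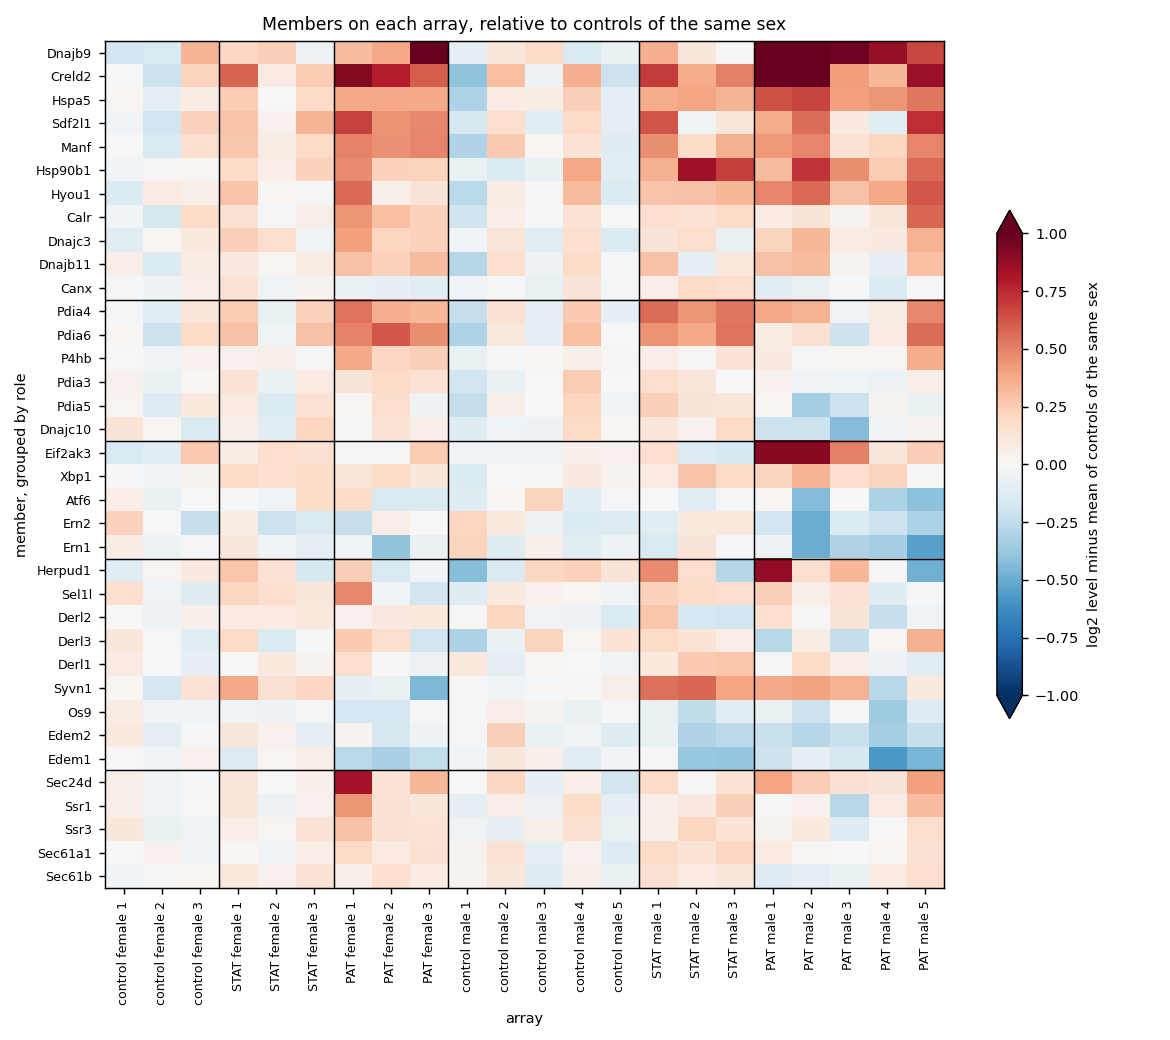
Each member (rows, by role) on each array (columns, by group), as log2 level minus the mean of controls of the same sex; red is higher, blue lower, and colours saturate at 1. Most chaperone rows are red across PAT, the strongest in Dnajb9 and Creld2 and not in Canx, and the Syvn1 row is red across STAT.

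PAT and STAT were compared directly, which needs no control array. Averaged over the sexes, 1 member was higher with PAT and 2 were lower, against 2.89% and 2.98% of all genes. Dnajb9 was higher by 0.71 ± 0.15 (adjusted p = 0.0061) and stayed called without any 1 array. Syvn1 was lower with PAT, at -0.39 ± 0.10 (adjusted p = 0.018), with levels of 9.56, 9.60 and 9.22 in PAT females and 10.10, 10.12, 10.07, 9.45 and 9.82 in PAT males. These overlap the STAT arrays in males, and the call was lost without STAT female 1, PAT female 3 or STAT male 2 (adjusted p up to 0.066). Canx was lower by a small amount, at -0.17 ± 0.05 (adjusted p = 0.046). All 8 PAT arrays of Canx (12.72 to 12.86) lay below all 6 STAT arrays (12.89 to 13.07), as in 0.803% of all genes, and the call was lost in 10 of 14 leave-one-out runs.

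Hspa5 was higher with PAT than with STAT on every array, as in 0.726% of all genes, and its difference of 0.20 ± 0.08 missed the threshold (adjusted p = 0.12). Hsp90b1, Pdia4 and Pdia6 were at -0.01 ± 0.09, 0.01 ± 0.09 and 0.01 ± 0.11, which does not show that the regimens act alike. In males, 2 members were called higher with PAT than with STAT and 0 lower, against 3.47% and 5.24% of all genes: Dnajb9 at 0.97 ± 0.20 (adjusted p = 0.0056) and Eif2ak3 at 0.58 ± 0.15 (adjusted p = 0.022). All PAT males lay above all STAT males for Hspa5 and Dnajb9 and below them for Pdia5, Canx, Dnajc10 and Ern2, against 4.51% and 7.08% of all genes. Without STAT males 2 and 3, only STAT male 1 is left in the male STAT group, so no call is read from that fit. The male difference of Dnajb9 was then 0.77 and that of Eif2ak3 0.37. Averaged over the sexes and without STAT males 2 and 3, Dnajb9 was at 0.61 ± 0.19 and Syvn1 at -0.41 ± 0.12. In females 0 members were called, against 0.528% higher and 0.335% lower of all genes.

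In controls, females and males differed in 0 of the 36 members (0.0275% of all genes in each direction). An unadjusted p under 0.05 stood for 2 members and 12.5% of all genes. Xbp1 was 1 of them, at 12.73, 12.72 and 12.78 in females and 12.82, 12.96, 12.97, 13.05 and 12.99 in males (-0.21 ± 0.08, adjusted p = 0.25), as did Dnajc10 (-0.26 ± 0.10, adjusted p = 0.3).

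The wider secretory pathway was measured too. Of 107 other measured genes, 6 were called higher with PAT and 6 lower averaged over the sexes, near the background of 4.61% and 6.38%, with a median difference of 0.0275. The 31 genes of the translocon, signal peptidase and oligosaccharyltransferase list and the 15 oxidative folding genes held 0 calls. The rises of smallest p were Uggt1, which re-tags unfolded glycoproteins for Calr and Canx, at 0.29 ± 0.07, Mbtps2, the protease that frees Atf6, at 0.24 ± 0.06, and the liver and gut transcription factor Creb3l3 at 0.82 ± 0.20. The falls of smallest p were Rnf5 (-0.26 ± 0.06) and Ubxn6 (-0.36 ± 0.08) of the degradation machinery and the lectin Erlec1 (-0.33 ± 0.07), a relative of Os9. The degradation list held 3 falls and 0 rises in 19 genes. In males 3 of the 107 were called higher and 7 lower, against 2.34% and 6.68% of all genes. The rises were Creb3l3 (0.85 ± 0.25), Atf4 and Ppp1r15a. Of the genes downstream of Eif2ak3, Atf4 was at 0.57 ± 0.14 and Ppp1r15a at 0.94 ± 0.24 (adjusted p = 0.014 and 0.017), while Ddit3 (CHOP) was not called higher. Ppp1r15b, a relative of Ppp1r15a, was at 0.19 ± 0.08 (adjusted p = 0.14). The male falls of smallest p were Rnf5, Rnf139 and Erlec1. With STAT 0 of the 107 were called.

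Cell type markers were measured beside these results. With PAT averaged over the sexes, 1 of 7 enterocyte markers was called higher (Fabp6, 0.21 ± 0.07), 1 of 8 goblet markers lower (Atoh1, -0.22 ± 0.06), 1 of 7 plasma cell markers higher (Sdc1, 0.32 ± 0.10) and 0 of 5 Paneth and 0 of 7 enteroendocrine markers either way. In males the plasma cell list fell in Mzb1 (-0.74 ± 0.22) and Tnfrsf17 (-0.51 ± 0.16) while Sdc1 rose, and its mean level was 7.66 to 8.15 with PAT against at most 8.57 in controls. The Paneth list fell in Pla2g2a (-0.82 ± 0.21) and Mmp7 (-0.54 ± 0.17) in males, with a mean level of 11.81 to 12.36 against 12.12 to 12.80. In females neither list held a call, and the differences ran the other way: the plasma cell median was 0.37 with 5 of 7 markers positive, and the Paneth median 0.133 with 5 of 5 positive. Mean plasma cell levels were 8.52, 7.82 and 7.75 in PAT females 1, 2 and 3 and 7.43 to 7.80 in control females. Mean Paneth levels were 12.77, 12.25 and 12.15 in the same PAT arrays and 12.02 to 12.44 in control females. In both lists the highest was PAT female 1, the array that stood apart in B cell markers. Goblet markers had mean levels of 12.51 to 12.68 in PAT males and 12.61 to 12.64 in control males. For PAT against STAT in males, 5 of 7 enterocyte markers were higher and the smooth muscle gene Myh11 lower (-0.78 ± 0.22). Of all genes, 3.47% were called higher and 5.24% lower there. The mean enterocyte level was 11.14 and 11.34 in STAT males 2 and 3, the arrays with high beta-actin values. It was 11.70 in STAT male 1 and 11.61 to 12.10 in PAT males. Mean smooth muscle levels were 12.41 and 12.38 in STAT males 2 and 3, 11.83 in STAT male 1 and 11.15 to 12.07 in PAT males. Neither T cell nor pancreatic acinar markers were called in any of these comparisons. RMA values have no true 0, so no marker can be said to be absent. The part of these cell types in the differences of the 36 genes was not tested.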

How the data were processed

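The deposited table holds log2 expression values of 45101 probe sets on 22 1-colour Affymetrix arrays, and the submitters' processing notes name RMA and the affy package, with no version, for how the authors made them. RMA gives no detection calls and understates changes of dim genes. Probe sets with exactly 1 gene symbol (34945) were kept, and the 1 of highest mean stood for each of 18193 genes. limma 3.58.1 in R 4.3.3 fitted 1 mean per group to all arrays (16 residual and 4.88 prior degrees of freedom), and two-sided p-values were adjusted by Benjamini-Hochberg over all genes within each contrast. The fit was tested on simulated data. Precision is limited by the number of arrays. Column medians were 5.68 to 5.79, and of 231 array pairs 0 were identical. Members and lists were chosen with earlier results of these data known. All 36 members are named, and of the other pathway genes the 3 called of smallest p in each direction. Alternatives were the mean of probe sets, every probe set, a mean level of at least 6, repeated quantile normalization, median centring, only the groups compared, array weights, the Gapdh end difference as a covariate, and arrays left out.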

Additional observations from a re-analysis of the deposited data

Results flagged for a closer look

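Of 72 tests of a member in a group of 5 arrays, 5 found an array far from the other 4, where chance flags about 1 in 20. In control males, Hsp90b1 was at 12.53 in male 4 against at most 12.08 in the others, and Canx at 12.99 in the same array against at most 12.84. Both values lie on the control side and narrow the gap to PAT for Hsp90b1. Edem2 was at 9.818 in control male 2 against at most 9.555. In PAT males, array 5 held the highest Calr, at 13.03 against at most 12.58, and the highest P4hb, at 13.38 against at most 13.1. The PAT call of Hsp90b1 held without any 1 array. Edem2 lost its call in males without control male 2, among other arrays, and Calr and P4hb averaged over the sexes lost theirs in 7 and 8 of 16 leave-one-out runs.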

How the results depend on the processing

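With 1 value per gene, no member that was called in any setting changed sign. For PAT averaged over the sexes, 18 of 21 further probe sets of called members had the same sign. Of these 21, 0 were called with the opposite sign. Of the 16 PAT calls averaged over the sexes, Hspa5, Dnajb9, Creld2 and Manf held under all 8 alternatives with 1 value per gene. They also held with every array left out. The fit of every probe set is not among these 8, and a dimmer probe set of Hspa5 was not called there. Members called higher there numbered 5 with the Gapdh covariate in place of 14. Members called lower, 2 at first, numbered 1 with median centring or only the groups compared and 0 with the mean of probe sets or the Gapdh covariate. In males the 3 lower became 1 with repeated quantile normalization or array weights, and 0 with the mean of probe sets, only the groups compared or the Gapdh covariate. In females the 2 higher became 9 with array weights, 1 with quantile normalization, only the groups compared or STAT males 2 and 3 left out, and 0 with the Gapdh covariate. Array weights, which trust noisy arrays less, called 9 members higher with STAT averaged over the sexes, and 11 higher and 2 lower in males, in place of 0. For PAT against STAT averaged over the sexes, the 1 higher became 2 with array weights and 0 without STAT males 2 and 3. The 2 lower became 1 with the mean of probe sets, quantile normalization or centring, and 0 with only the groups compared or without STAT males 2 and 3. In males the 2 higher became 0 with only the groups compared or without STAT males 2 and 3, and the 0 lower became 2 with the filter on a mean of 6, 1 with centring and 7 with array weights. In females array weights gave 1 lower. With fewer groups or arrays the fit has fewer degrees of freedom. Without STAT males 2 and 3, the male STAT group holds only STAT male 1. Counts of members and of all genes against STAT from that run rest on this 1 array for males. The cause of the other shifts was not tested.

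With 1 array left out at a time, PAT averaged over the sexes gave 7 to 14 members higher and 1 to 2 lower, males 6 to 8 and 0 to 3, and females 0 to 1 higher. STAT gave 0 to 3 higher averaged over the sexes, and 0 to 4 higher and 0 to 1 lower in males. PAT against STAT gave 1 to 2 higher and 0 to 2 lower, and 0 to 2 in each direction in males.

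Counts over all genes moved too. PAT averaged over the sexes called 839 genes higher and 1160 lower, and 428 and 328 with the Gapdh covariate. STAT called 0 in each direction, and 1061 higher and 1227 lower with array weights. In males STAT also called 0, and 1682 higher and 2387 lower with array weights. PAT against STAT called 526 and 543, and 216 and 287 without STAT males 2 and 3. Repeated quantile normalization moved the share of higher genes among those called from 26% to 42.4% for PAT in males, from 67.7% to 47.8% in females and from 61.1% to 45.6% for PAT against STAT in females.

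No paired analysis was possible because the labels give the arrays no replicate number that groups share. Groups of 3 arrays limit the female comparisons and all those with STAT.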
